A study of Oryctolagus cuniculus with 6 samples.

Results

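The adipocyte and PPAR fatty acid genes are a set of 31 genes that mark fat cells or handle fatty acids, chosen by gene symbol. Rows were found for 23 of them among the 17396 genes counted in each facial nerve library. PLIN1, CFD, PLIN4, SLC27A1, FASN, SCD, PNPLA2 and CPT1A were matched to no row under their symbol or through a gene identifier, and were not analysed here. The libraries came from wild type Japanese white rabbits, all male and 3 to 4 months old, 3 for the FNI (facial nerve injury) group and another 3 for FNI+I-125. In both groups the main trunk of the facial nerve had been cut. In the FNI+I-125 group, a radioactive iodine seed of 0.8 mCi had also been placed beside the nerve, and the nerves of both groups were harvested on day 14. The comparison asks how the seed altered gene expression in the injured nerve. No uninjured nerve was analysed here, so levels before injury are unknown.

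Peripheral nerves carry fat cells in the epineurium, the loose outer sheath, and lie in fat where they leave the skull. PPARG and CEBPA are the transcription factors that drive fat cell differentiation, and PPARG, together with a retinoid X receptor, activates genes for fatty acid uptake, binding, storage and breakdown. The related receptor PPARA switches on fatty acid oxidation in liver and muscle, and PPARD is broadly expressed. Many of these genes are not confined to fat cells. LPL and CD36 are also made by muscle and macrophages, FABP4 by capillary endothelium and macrophages, and FABP3 and CPT1B mainly by muscle. In bulk tissue, fewer fat cells and less RNA per fat cell cannot be told apart.

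Total counts ran from 16031151 to 16798012 per library, and values are given as CPM, counts scaled to a common library size by TMM. The FNI+I-125 group was compared with the FNI group by edgeR's quasi-likelihood test over 14003 genes, and DEGs needed |log2 FC| of at least 1.5 at an adjusted p under 0.05. By this test 0 genes were DEGs, against 2375 genes (17.0%) at an unadjusted p under 0.05. DESeq2 gave 236 upregulated and 163 downregulated genes at the adjusted threshold, and limma-voom gave 0. Members are therefore described at the unadjusted p, beside the share that all genes tested show at the same p.

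The libraries differed in other tissues, and these values stand beside the results below. Schwann cell and myelin markers (16 genes tested, PMP22 among them) summed to between 4854 and 40925 CPM in the FNI libraries and to between 960 and 4413 CPM in the FNI+I-125 libraries, with the highest sum in FNI replicate 3. Of these markers, 5 were lower at an unadjusted p under 0.05 and 0 were higher. Macrophage markers (15 genes tested, led by GPNMB and LGALS3) summed to 410 to 2443 CPM against 2791 to 8147 CPM, with 6 higher and 0 lower. Skeletal muscle markers (12 genes tested, led by ACTA1 and TTN) summed to 89.5 to 182 CPM in the FNI libraries, to 5285 and 4785 CPM in FNI+I-125 replicates 1 and 2, and to 61.8 CPM in replicate 3, with 11 higher and 0 lower. Salivary gland markers (15 genes tested, led by DNASE1 and PIP) summed to 50421 CPM in FNI replicate 2 and to 105 to 3780 CPM in the other 5 libraries, with 4 lower and 0 higher. Endothelial markers (13 genes tested, led by VWF and PECAM1) summed to 2857 to 3437 CPM against 2066 to 3239 CPM, with 6 lower and 0 higher. Over all genes tested, 9.23% were higher and 7.73% lower at this p. In each of these lists, 0 markers had 0 counts in all libraries, and their part in the results was not tested.

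**Figure D1:**
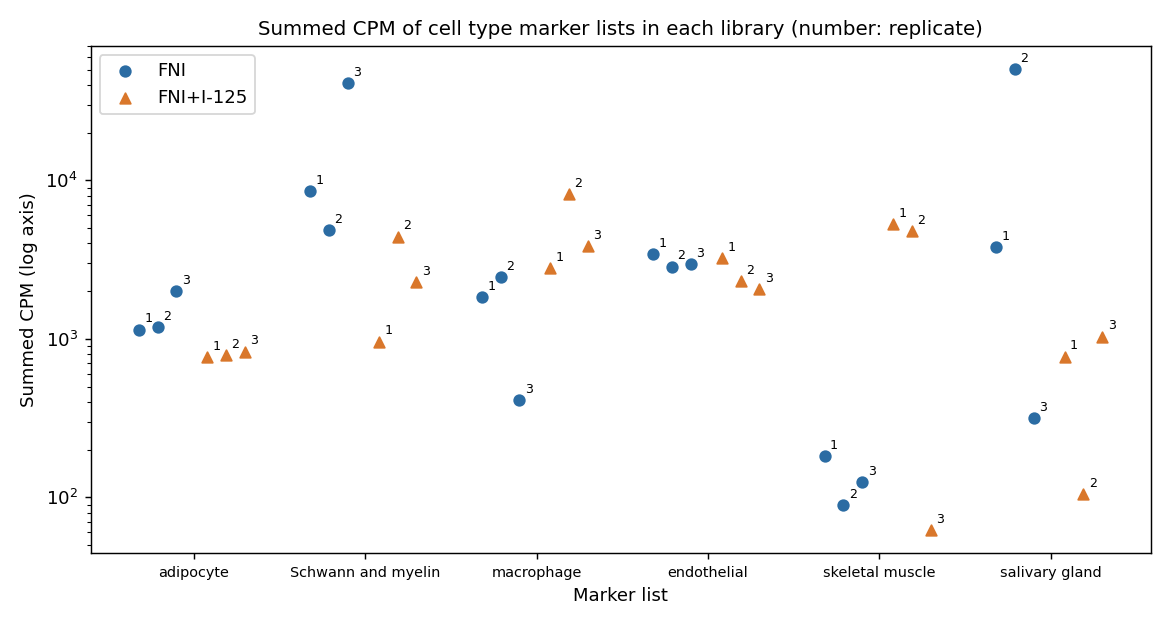
Summed CPM, on a log axis, of the 3 adipocyte markers that had a row and of 5 lists of other cell type markers, with 1 point per library and the replicate number beside it. The adipocyte sum, which is mostly ADIPOQ, lay at 1142 to 2000 CPM in the FNI libraries and at 763 to 829 CPM in the FNI+I-125 libraries, while the gland, muscle and myelin sums each stood apart in 1 or 2 libraries.

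Compared to the FNI group, 21 of the 23 members had a lower level after the seed, and the median log2 FC was -0.90. Over all genes tested, 48.9% had a log2 FC below 0 and the median was 0.01. The direction was shared by 16 of 16 Schwann cell and myelin markers (median -1.88), 12 of 15 salivary gland markers (-1.66) and 11 of 13 endothelial markers (-0.42). All 15 macrophage and all 12 skeletal muscle markers lay the other way. At an unadjusted p under 0.05, 5 members were lower (ADIPOQ, PDK4, GPD1, LIPE and ACACB), where 7.73% of all genes were lower, and 1 member was higher (OLR1), where 9.23% of all genes were higher. All 23 passed the filter on low counts, but OLR1 reached the cutoff in only 1 FNI library and passed through the FNI+I-125 libraries. The libraries of the groups did not overlap for ADIPOQ, ACLY and PDK4, which were lower (12.3% of all genes), and for OLR1, which was higher (14.8% of all genes). The count of members without overlap was thus near the share of all genes on the lower side. On the higher side it was below that share, as it was at the unadjusted p. The members were read in the same 6 libraries and are not independent of each other.

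The level of these genes also varied between rabbits of the same group. FNI replicate 3 held the highest value of the 6 libraries for 16 members, and 30.0% of all genes tested had their highest value there. FNI replicate 2 was highest for 5 members, and FNI+I-125 replicate 1 for the other two, FABP3 and OLR1. Within the FNI group, replicate 3 was the highest library for 16 members, against 41.0% of all genes tested, and replicate 1 the lowest for 17. Within the FNI+I-125 group, replicate 3 was the highest library for 14 members, against 30.4% of all genes tested, and replicate 1 the lowest for 12.

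**Figure D2:**
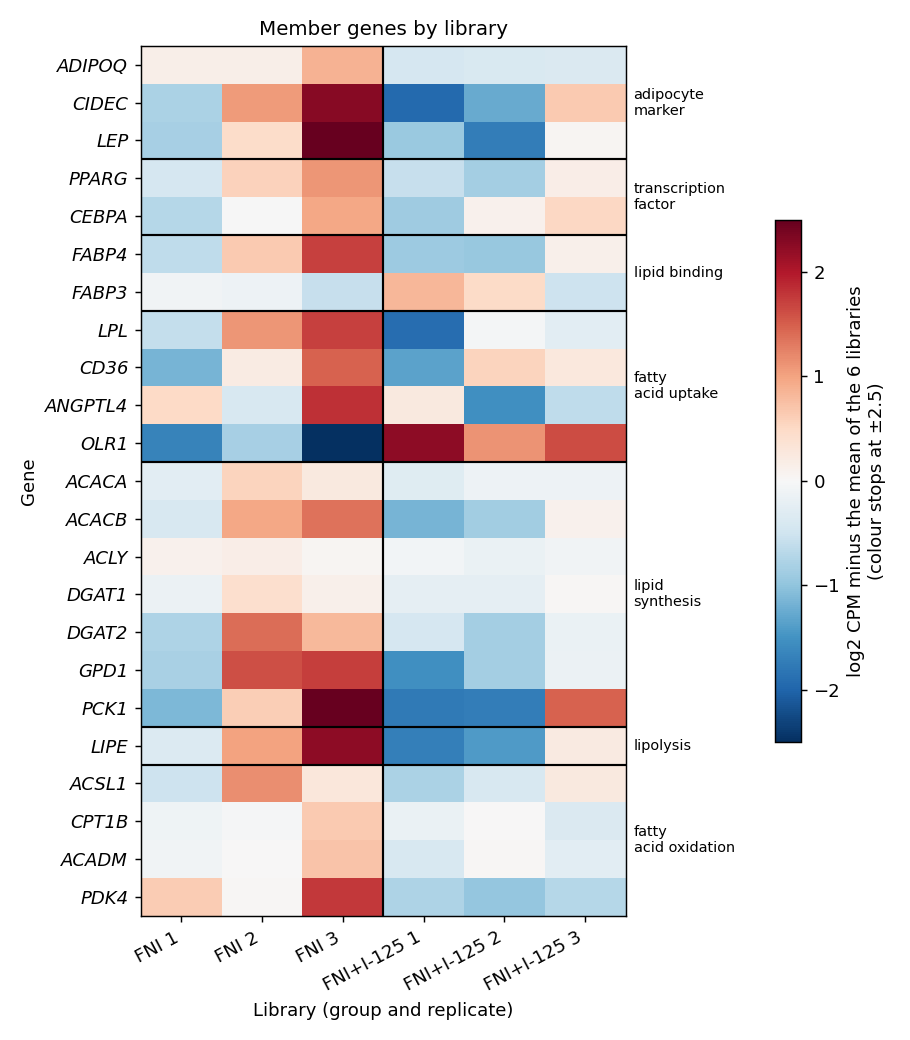
Level of each of the 23 members (rows, grouped by role) in each library (columns), as log2 CPM minus the mean of the 6 libraries for that gene. FNI replicate 3 is the highest library for 16 members, while FABP3 and OLR1 are lowest in FNI replicate 3 and highest in FNI+I-125 replicate 1.

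Among the adipocyte markers, ADIPOQ, the fat cell hormone adiponectin, had the narrowest spread within groups. It stood at 1124, 1122 and 1840.5 CPM in FNI replicates 1, 2 and 3 and at 755, 772 and 781 CPM in FNI+I-125 replicates 1, 2 and 3. The groups did not overlap, and the FNI+I-125 libraries differed by at most 1.04-fold. The means were 1362 ± 414 CPM and 769 ± 13.5 CPM (SD, n = 3 each), a log2 FC of -0.82 ± 0.25 (SE, edgeR unadjusted p = 0.0158, adjusted p = 0.280). ADIPOQ kept an unadjusted p under 0.05 with each library left out in turn, with log2 FCs of -0.95 to -0.56. DESeq2 gave it an adjusted p of 0.0243, and its change is under the fold change criterion.

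CIDEC coats the fat droplet and enlarges it. Its values were 16.6, 59.8 and 139 CPM in the FNI libraries and 7.45, 11.99 and 45.1 CPM in the FNI+I-125 libraries. FNI+I-125 replicate 3 lay above FNI replicate 1, so the groups overlapped, and the FNI libraries themselves spanned 8.39-fold. The log2 FC of CIDEC was -1.74 ± 0.96 (SE, edgeR adjusted p = 0.364), and without FNI replicate 3 it was -0.85. LEP encodes leptin, the fat cell's satiety hormone, and was counted few times, with 25, 57 and 345 counts against 21, 13 and 46. These were 1.46, 3.59 and 20.4 CPM against 1.37, 0.79 and 2.70 CPM, and the groups overlapped. FNI replicate 3 stood 13.9-fold above FNI replicate 1, and the log2 FC of LEP was -2.38 ± 1.06 with this library (SE, edgeR adjusted p = 0.311) and -0.66 without it. CIDEC and LEP thus spread more widely than ADIPOQ among nerves of the same group, where ADIPOQ spanned 1.64-fold in the FNI group.

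The adipogenic transcription factors were lower on average without passing either threshold. PPARG stood at 15.4, 30.9 and 44.7 CPM in the FNI libraries and at 13.9, 11.4 and 23.2 CPM in the FNI+I-125 libraries. FNI+I-125 replicates 1 and 2 lay below all FNI libraries and replicate 3 did not. The log2 FC of PPARG was -0.90 ± 0.45 (SE, edgeR adjusted p = 0.338), and with each library left out it stayed between -1.27 and -0.54. CEBPA stood at 41.8, 68.3 and 133 CPM against 36.9, 74.1 and 98.2 CPM, with a log2 FC of -0.22 ± 0.52 (SE, edgeR adjusted p = 0.839). The ranges of CEBPA overlapped, with only FNI replicate 3 above all FNI+I-125 libraries and only FNI+I-125 replicate 1 below all FNI libraries. The direction of CEBPA turned without FNI replicate 3 (0.32) and without FNI+I-125 replicate 1 (0.09).

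**Figure D3:**
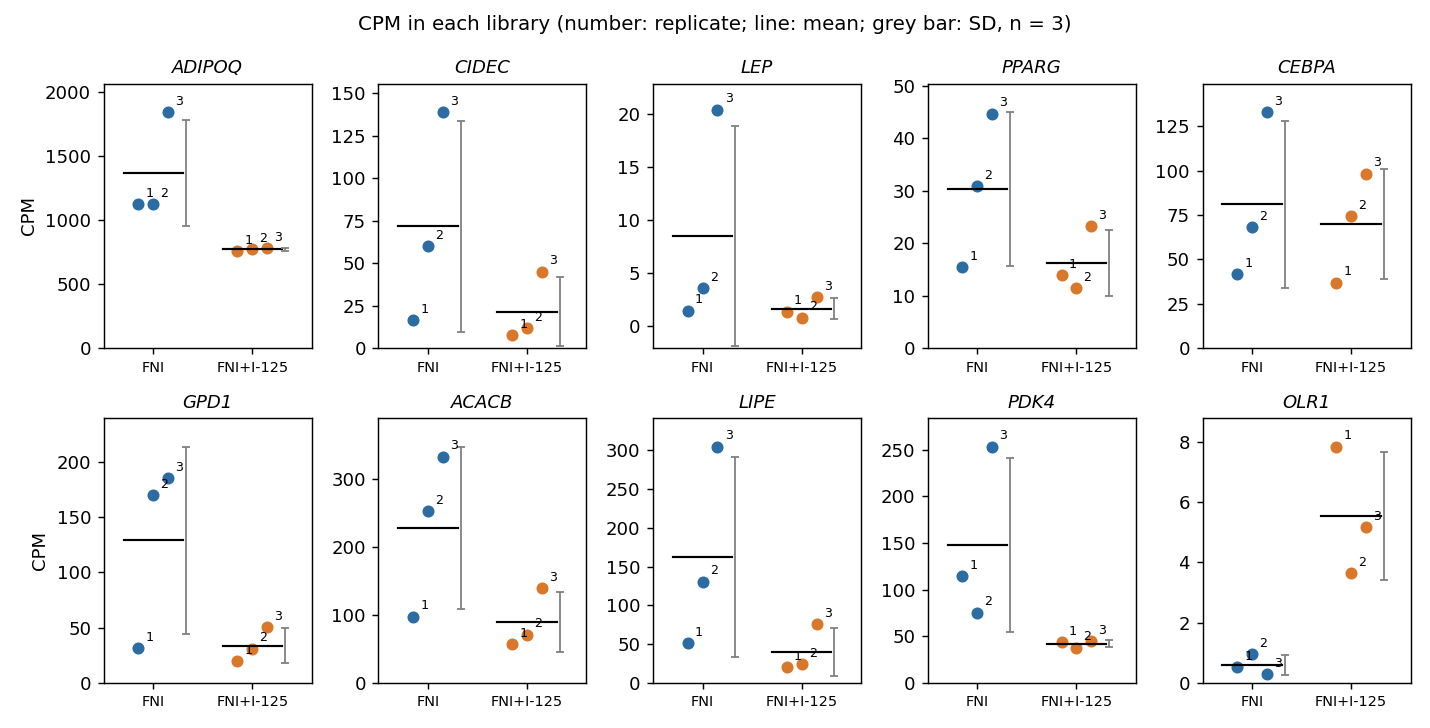
CPM of the adipocyte markers, the transcription factors and the 6 members at an unadjusted p under 0.05, with 1 point per library (number, replicate), the mean as a line and the SD (n = 3) as a grey bar. ADIPOQ, PDK4 and OLR1 show no overlap between the groups, while CIDEC, LEP, PPARG, CEBPA, GPD1, ACACB and LIPE overlap, with FNI replicate 1 near the FNI+I-125 libraries.

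The fatty acid binding proteins carry fatty acids through the cytoplasm, and the 2 members of this family lay in opposite directions. FABP4, the form of fat cells, macrophages and capillaries, was 148, 362 and 756 CPM in the FNI libraries against 123, 119 and 253 CPM with the seed. Its log2 FC was -1.35 ± 0.63 (SE, edgeR adjusted p = 0.318), or -0.65 without FNI replicate 3. FABP3, the form of heart and skeletal muscle, was 9.25, 9.01 and 6.56 CPM against 17.3, 13.6 and 6.87 CPM, with a log2 FC of 0.60 ± 0.37 (SE, edgeR adjusted p = 0.404). FABP3 was high in FNI+I-125 replicates 1 and 2, the libraries with high skeletal muscle markers. It was within the FNI range in replicate 3, where these markers summed to 61.8 CPM. CPT1B, also made mainly by muscle, stood at 6.47 and 7.30 CPM in FNI+I-125 replicates 1 and 2, not above its FNI range. The part of muscle in the values of FABP3 was not tested.

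Of the genes for fatty acid uptake, LPL, the lipase that frees fatty acids from circulating lipoproteins, stood at 312, 1017 and 1535 CPM against 127, 457 and 391 CPM. FNI replicate 1 lay below FNI+I-125 replicates 2 and 3. For LPL the log2 FC was -1.56 ± 0.71 (SE, edgeR adjusted p = 0.315). ANGPTL4, a PPAR target that inhibits LPL, stood at 73.6, 39.5 and 184 CPM against 61.8, 17.9 and 33.6 CPM, and the groups overlapped through FNI+I-125 replicate 1. That gave a log2 FC of -1.39 ± 0.69 (SE, edgeR adjusted p = 0.334), or -0.61 without FNI replicate 3. CD36, a fatty acid transporter of the cell surface, stood at 76.6, 199 and 476 CPM against 67.9, 255 and 208 CPM. The difference of CD36 was -0.50 ± 0.75 on the log2 scale (SE, edgeR adjusted p = 0.732) and turned to 0.35 without FNI replicate 3.

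OLR1, the receptor for oxidized low density lipoprotein on endothelium and macrophages, was the member with the smallest p-value and the only one past the unadjusted p in the higher direction. It had 9, 15 and 5 counts in FNI replicates 1, 2 and 3 against 120, 60 and 88 with the seed. Every FNI+I-125 library was above every FNI library, with means of 0.59 ± 0.33 CPM without the seed and 5.55 ± 2.12 CPM with it (SD, n = 3 each). The log2 FC of OLR1 was 3.22 ± 0.55 (SE, edgeR unadjusted p = 0.0011, adjusted p = 0.280), and DESeq2 gave an adjusted p of 3.4e-05. With each library left out it stayed between 2.89 and 3.73. OLR1 reached the low-count cutoff in only 1 FNI library and was tested through the group where it is high, which limits what these p-values mean. The macrophage markers also differed between the groups, since every FNI+I-125 library had a larger sum of them than every FNI library. Their largest sum, led by GPNMB and LGALS3, was in FNI+I-125 replicate 2, where OLR1 was at 3.65 CPM, the lowest value of its group. Most of these markers were highest in FNI+I-125 replicate 2, while MSR1, CD163 and AIF1 were highest in FNI+I-125 replicate 1, as OLR1 was. The part of macrophages in the difference of OLR1 was not tested.

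All 7 lipid synthesis genes that had a row were lower on average, by very different amounts (median log2 FC -1.18). GPD1, which makes the glycerol phosphate backbone of triglycerides, stood at 31.6, 170 and 186 CPM against 19.4, 30.98 and 50.4 CPM. Its log2 FC was -1.94 ± 0.71 (SE, edgeR unadjusted p = 0.0333, adjusted p = 0.281). ACACB, the acetyl-CoA carboxylase at the outer mitochondrial membrane, whose product malonyl-CoA restrains fatty acid import into mitochondria, stood at 97.9, 254 and 334 CPM against 57.6, 71.0 and 140 CPM. For ACACB the log2 FC was -1.35 ± 0.54 (SE, edgeR unadjusted p = 0.0467, adjusted p = 0.290). For both genes, FNI replicate 1 lay below FNI+I-125 replicate 3, and the gap between the groups came from FNI replicates 2 and 3.

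ACLY, which splits citrate to acetyl-CoA, varied little within groups, with 262, 274 and 252 CPM against 233, 217 and 228 CPM. The groups did not overlap, and the difference was small, with a log2 FC of -0.22 ± 0.11 (SE, edgeR adjusted p = 0.345). ACACA, the cytosolic acetyl-CoA carboxylase, stood at 85.7 ± 23.6 CPM against 64.9 ± 4.46 CPM (SD, n = 3 each), a log2 FC of -0.40 ± 0.22, SE). The enzymes of the last step of triglyceride synthesis were unlike in size. DGAT1 stood at 43.0 ± 8.20 against 35.3 ± 3.77 CPM (log2 FC of -0.28 ± 0.18, SE), and DGAT2 at 193 ± 120 against 85.3 ± 19.8 CPM (SD, n = 3 each, log2 FC of -1.18 ± 0.53, SE). PCK1, which supplies glycerol in fat cells when glucose is low, ranged over 12.4-fold without the seed and 9.49-fold with it. The 39.7 CPM of FNI+I-125 replicate 3 lay between the 21.9 CPM of FNI replicate 2 and the 81.3 CPM of FNI replicate 3. The log2 FC of PCK1, -1.19 ± 1.23 (SE, edgeR adjusted p = 0.609), turned to 0.15 without FNI replicate 3.

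LIPE, the hormone-sensitive lipase that releases stored fatty acids, was the lipolysis gene that had a row. It stood at 51.5, 131 and 305 CPM in the FNI libraries and at 19.9, 24.3 and 75.5 CPM in the FNI+I-125 libraries, and only FNI+I-125 replicate 3 reached into the FNI range. LIPE had a log2 FC of -2.02 ± 0.81 (SE, edgeR unadjusted p = 0.0457, adjusted p = 0.289), and without FNI replicate 3 it was -1.22.

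Among the fatty acid oxidation genes, PDK4 stood out. PDK4 blocks pyruvate dehydrogenase, which turns mitochondria from glucose to fatty acids, and is a known PPAR target. It was 115, 75.4 and 253 CPM in FNI replicates 1, 2 and 3 and 43.5, 37.8 and 45.1 CPM in FNI+I-125 replicates 1, 2 and 3. All FNI+I-125 libraries lay below all FNI libraries, and they were close together, at 42.1 ± 3.83 CPM (SD, n = 3). PDK4 had a log2 FC of -1.81 ± 0.45 (SE, edgeR unadjusted p = 0.00699, adjusted p = 0.280). It kept an unadjusted p under 0.05 with each library left out in turn (log2 FCs of -2.13 to -1.20), and DESeq2 gave an adjusted p of 0.00544.

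The other 3 fatty acid oxidation genes that had a row had log2 FCs closer to 0 than PDK4, a difference that was not tested. ACSL1, which activates fatty acids to their CoA esters, stood at 20.3, 65.5 and 35.6 CPM against 16.8, 22.2 and 34.6 CPM, and without FNI replicate 2 its log2 FC of -0.72 ± 0.48, SE) shrank to -0.19. CPT1B, the muscle form of the enzyme that admits fatty acids to mitochondria, stood at 8.50 ± 2.63 CPM against 6.47 ± 0.83 CPM (SD, n = 3 each), a log2 FC of -0.39 ± 0.28, SE). In FNI+I-125 replicates 1 and 2, with high muscle markers, CPT1B was at 6.47 and 7.30 CPM, close to FNI replicates 1 and 2 at 6.79 and 7.18 CPM. ACADM, the medium-chain dehydrogenase that opens β-oxidation, stood at 23.6 ± 7.50 CPM against 17.2 ± 2.71 CPM (SD, n = 3 each), a log2 FC of -0.45 ± 0.26, SE). Adjusted p-values of ACSL1, CPT1B and ACADM were 0.434, 0.462 and 0.379 in edgeR's quasi-likelihood test.

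**Figure D4:**
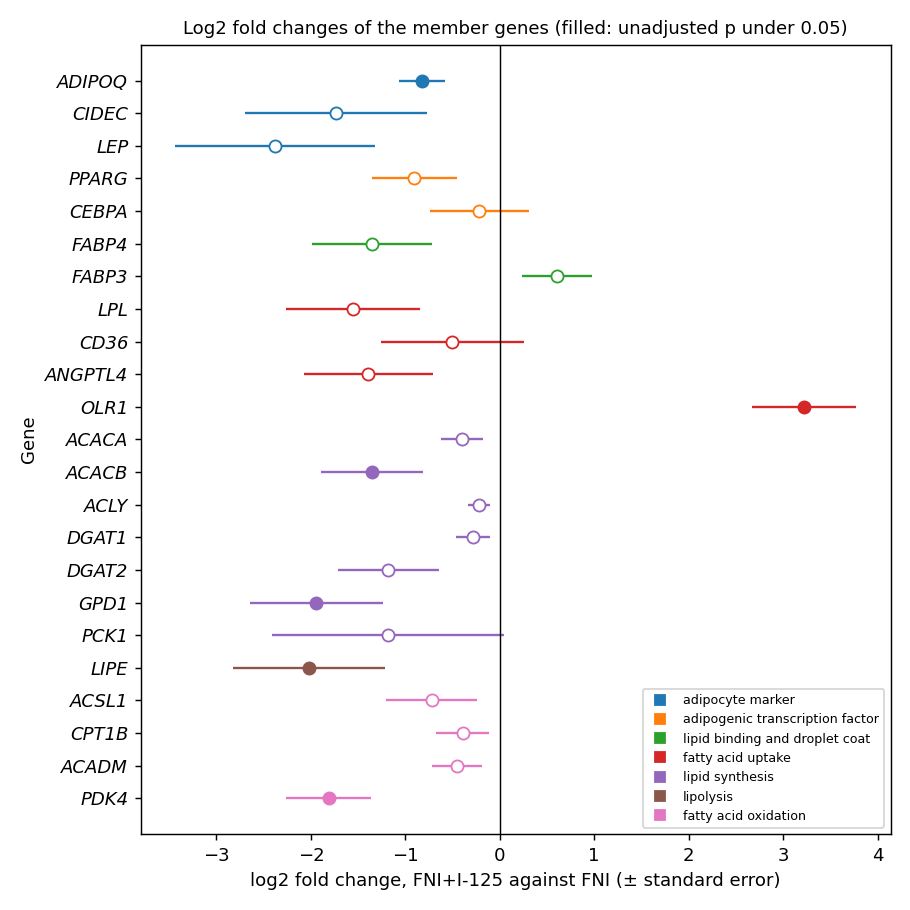
Log2 fold change (FNI+I-125 against FNI) of each member with its standard error, coloured by role and filled where the unadjusted p is under 0.05. Points lie left of 0 for 21 of 23 genes, and FABP3 and OLR1 lie right of it.

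The calls on the lower side depended on single libraries. The count of 5 members became 11 without FNI replicate 1, 3 without FNI replicate 2, 2 without FNI replicate 3, 2 without FNI+I-125 replicate 1, 2 without FNI+I-125 replicate 2 and 9 without FNI+I-125 replicate 3. The share of all genes lower at this p was, in the same order, 7.43%, 7.51%, 5.24%, 3.71%, 6.03% and 6.63%. ADIPOQ and PDK4 were among the members called in all 6 of these fits. OLR1 was too on the higher side, with the limit from the low-count filter given above. GPD1, LIPE and ACACB were called without FNI replicate 1 or without FNI+I-125 replicate 3 and lost their call when any 1 of the other 4 libraries was left out.

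Since ADIPOQ is made by fat cells almost alone, the other 22 members were also set against it within each library, as counts per 100 ADIPOQ counts. This ratio compares libraries for 1 gene and not 1 gene with another. Within the FNI+I-125 group ADIPOQ spanned 1.04-fold, where CIDEC spanned 6.05-fold and LEP 3.41-fold. ADIPOQ thus did not follow the other adipocyte markers there, and the ratio is not a level per fat cell. ADIPOQ was itself lower with the seed, so a gene whose CPM is equal in both groups lies above 0 on this scale, and the median log2 ratio difference over all genes with a count in every library was 0.79. Below 0 were 12 of the 22 members and 10.4% of these genes, and the median of the members was -0.12. Lower without overlap were PDK4 among the members and 0.893% of all other genes tested. PDK4 stood at 10.2, 6.72 and 13.8 against 5.76, 4.89 and 5.77 counts per 100 ADIPOQ counts. Higher without overlap were 5 members (OLR1, FABP3, ACLY, CPT1B and ACADM) and 63.1% of all other genes tested. Of these 5, ACLY, CPT1B and ACADM had a lower mean CPM with the seed and are higher here through the divisor. FABP3 overlapped between the groups in CPM, and only OLR1 was higher without overlap on that scale too. ACADM held 1.66, 1.77 and 1.75 counts per 100 ADIPOQ counts in the FNI libraries, nearly the same in each, against 1.97, 2.62 and 2.12 with the seed.

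The groups overlapped for 16 of the 22 members. CIDEC ranged from 1.47 to 7.56 counts per 100 ADIPOQ counts in the FNI libraries and from 0.99 to 5.77 in the FNI+I-125 libraries. LIPE ranged from 4.59 to 16.6 against 2.63 to 9.66 on the same scale, and its mean log2 ratio differed by -1.16 between the groups. PPARG, at 1.37 to 2.76 against 1.48 to 2.98 counts per 100 ADIPOQ counts, differed by -0.06 on the log2 scale.

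**Figure D5:**
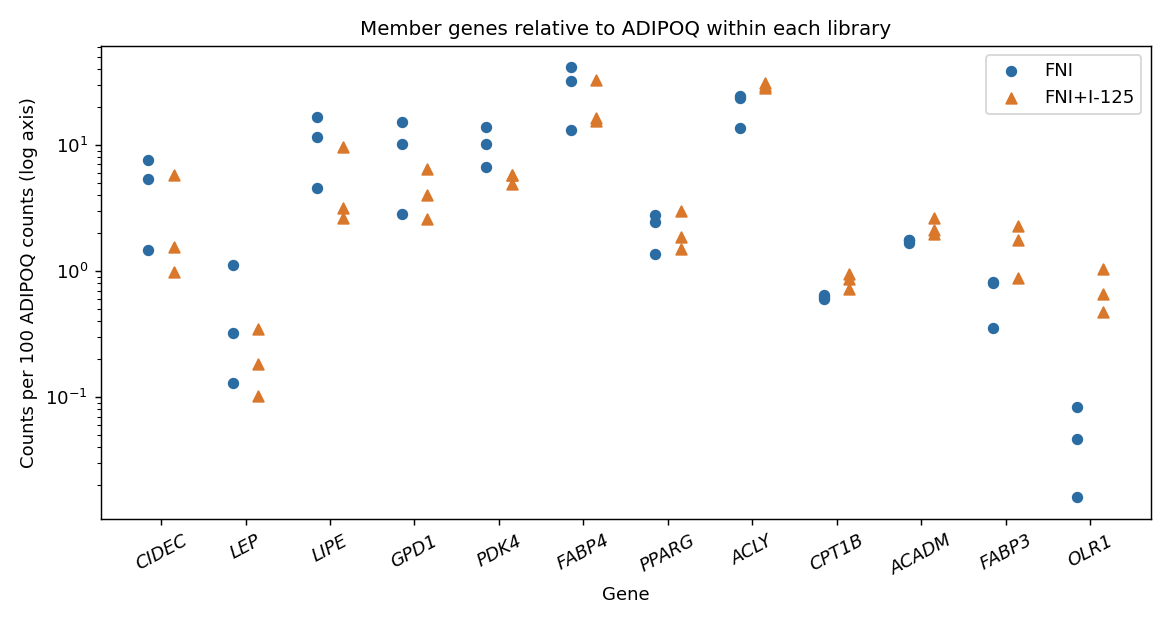
Counts per 100 ADIPOQ counts in each library, on a log axis, for 12 members. The groups overlap for CIDEC, LEP, LIPE, GPD1, FABP4 and PPARG, PDK4 lies lower in all FNI+I-125 libraries, and ACLY, CPT1B, ACADM, FABP3 and OLR1 lie higher in all of them, as do 63.1% of all other genes tested.

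Other genes of the pathway were read from lists written from general knowledge, some of whose genes stand in more than 1 list. Over all genes tested, 9.23% were higher and 7.73% lower at an unadjusted p under 0.05. Of 17 PPAR receptors, partners and coactivators tested, 1 was higher and 1 lower at this p, neither above these shares. The median log2 FC of this list was -0.10. PPARGC1B, a coactivator of mitochondrial genes, was higher at 26.4 ± 3.60 against 15.4 ± 1.94 CPM (SD, n = 3 each, log2 FC 0.78), and NR1H3, the oxysterol receptor LXR alpha, was lower at 28.6 ± 2.55 against 45.4 ± 16.4 CPM (log2 FC -0.67). PPARD, at 30.2 ± 7.02 against 22.7 ± 2.79 CPM, had a log2 FC of 0.41 and an unadjusted p of 0.103 in edgeR, above the threshold. With 1 library left out in turn, PPARGC1B kept an unadjusted p under 0.05 in all 6 fits and NR1H3 in 2.

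Of 35 other PPAR target and pathway genes tested, 5 were higher and 6 lower at an unadjusted p under 0.05, with a median of -0.26. PLIN2, the lipid droplet coat of macrophages and many other cells, stood at 50.4, 52.8 and 42.6 CPM in the FNI libraries and at 115, 88.9 and 96.0 CPM in the FNI+I-125 libraries, a log2 FC of 1.04. The groups did not overlap for PLIN2. TXNIP, which restrains glucose uptake, stood at 551 ± 156 against 260 ± 45.6 CPM (log2 FC -1.08). The adjusted p of PLIN2 and TXNIP was 0.280 each in edgeR's quasi-likelihood test. DESeq2 gave adjusted p-values of 6.9e-06 and 0.0038, and both changes are under the fold change criterion. Both genes kept an unadjusted p under 0.05 with each library left out in turn.

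Of 19 other adipocyte genes tested, 1 was higher and 6 were lower at an unadjusted p under 0.05, with a median of -1.08. KLF15, a late factor of fat cell differentiation, stood at 10.1 ± 3.63 against 2.40 ± 0.57 CPM (log2 FC -2.07), and MGLL, which completes lipolysis, at 430 ± 279 against 162 ± 29.9 CPM (log2 FC -1.41). CEBPB, an early factor of fat cell differentiation that inflammation also induces, was the higher one, at 57.3 ± 21.5 against 201 ± 73.6 CPM (SD, n = 3 each, log2 FC 1.81). KLF15 and CEBPB kept an unadjusted p under 0.05 in all 6 fits with 1 library left out. MGLL kept it in 4, and its log2 FC was -0.75 without FNI replicate 3. DESeq2 gave adjusted p-values of 0.00023 for KLF15, 0.0019 for CEBPB and 0.043 for MGLL.

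Of 20 other lipid synthesis genes tested, 1 was higher and 4 were lower, with a median of -0.44. FADS2, a fatty acid desaturase, had a log2 FC of -0.97, and SLC25A1, the mitochondrial citrate carrier, one of -0.82. ME1, which makes NADPH for fatty acid synthesis, lay in the other direction at 1.29. FADS2 and ME1 kept an unadjusted p under 0.05 in all 6 fits with 1 library left out, and SLC25A1 in 2. Of 21 other fatty acid oxidation genes tested, 0 were higher and 1 was lower, neither above the share over all genes, with a median of -0.14. That gene was ECHS1, the enoyl-CoA hydratase of β-oxidation, with a log2 FC of -0.69. It kept an unadjusted p under 0.05 in 2 of the 6 fits with 1 library left out. UCP3, a mitochondrial carrier of muscle, had a log2 FC of 1.86 and ACAA2, the thiolase of β-oxidation, one of -0.42, at unadjusted p-values of 0.0558 and 0.0738 in edgeR, above the threshold. The median over all genes tested was 0.01, and of the 5 pathway lists the other adipocyte genes had the lowest median. Of the cell type lists, Schwann cell and myelin markers (-1.88) and salivary gland markers (-1.66) had lower medians still. Endothelial, macrophage and skeletal muscle markers did not.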

How the data were processed

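RNA of 6 rabbit facial nerves was sequenced as TruSeq stranded mRNA libraries on an Illumina HiSeq platform. The authors deposited raw counts per gene for each library, without normalization or pooling. The submitters' processing notes name HISAT2 and the genome OryCun2.0, while the counting program and its strand setting are not given in the sources used here. Of 2992 LOC identifiers, 542 were given a symbol from RefSeq (mOryCun1.1). Per the paper's methods each group held 3 rabbits, and p-values measure the spread between these libraries.

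The test was edgeR 4.0.16 under R 4.3.3 (TMM, filterByExpr with a minimum count of 10, glmQLFit and glmQLFTest with default settings, two-sided, Benjamini-Hochberg adjustment over 14003 genes). Standard errors are the log2 fold change divided by the root of the F statistic. The thresholds follow the paper, which names no test. Alternatives were DESeq2 1.42.0, limma 3.58.1 (voom), other normalizations and filters, fits without each library in turn and a block for the replicate number. The scripts were tested on simulated counts. An exact permutation test of 3 against 3 libraries cannot go below p = 0.1 and was not used for calls.

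The members, their roles and the lists were chosen with earlier results of these data known. All members were named, with values per library for adipocyte markers, PPARG, CEBPA and members at an unadjusted p under 0.05, and for further members where the text describes them. From each pathway list, the up to 3 genes with the smallest p were named, and from each marker list the 2 with the highest CPM. A few list genes so chosen are left unreported here. No sequences were used here.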

Additional observations from a re-analysis of the deposited data

How the results depend on the processing

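With DESeq2, 236 upregulated and 163 downregulated DEGs were called over all genes, of which 2 were members (OLR1 and PDK4). In that fit 12 members were lower at an unadjusted p under 0.05. Of all genes, 22.4% were at this p in either direction with DESeq2, against 17% in the main test. The main share was made of 9.23% higher and 7.73% lower genes. Shares in either direction are thus larger than the background of the lower counts alone, which is not given for these settings. At an unadjusted p with the fold change criterion, 388 and 306 genes passed, and 3 members were lower. Limma-voom and library size only each gave 3 lower members, with 15.4% and 15.9% of all genes at the unadjusted p in either direction. Requiring at least 10 counts in every library removed OLR1, which left 0 higher members. With the replicate block, 10 members were lower, and 15.9% of all genes were at the unadjusted p in either direction. The samples share a number only, since deviations of same-numbered libraries from their group means correlated at 0.05, -0.19 and -0.14, and no sample pairing was assumed. Upper-quartile normalization, library sizes without muscle and gland markers, legacy = FALSE and no filter on low counts gave the same count of 5 lower and 1 higher member. In these fits 14.7% to 17.9% of all genes were at the unadjusted p in either direction.

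With 1 library left out, upregulated DEGs numbered 0 to 38 and downregulated DEGs 0 to 2 (38 and 2 without FNI+I-125 replicate 3), with 0 members among them. Members lower at the unadjusted p numbered 2 to 11 and higher members 1 to 2. Over all genes in these fits, 3.71% to 7.51% were lower and 6% to 8.2% higher at this p, so the higher counts were near the share of all genes. Members without overlap numbered 3 to 15 on the lower side (15 without FNI replicate 1, 12 without FNI+I-125 replicate 3) and 1 to 2 on the higher side. Fewer libraries overlap less by construction, and over all genes 16.1% to 19.8% were lower and 16.5% to 20.8% higher without overlap in these fits. The direction turned without FNI replicate 3 for CD36 (0.35), CEBPA (0.32) and PCK1 (0.15), and without FNI+I-125 replicate 1 for CEBPA (0.09), over ranges of -0.93 to 0.35, -0.55 to 0.32 and -3.12 to 0.15. In these cases the cause was not tested. With 3 libraries a group, differences within the spread between rabbits are not detectable.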
